A study of Mus musculus with 40 samples.

Results

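Lungs of C57BL/6 mice given bleomycin were compared with lungs of C57BL/6 mice given saline. Both sets of mice then received only the vehicle of the drug arm, whose drug was saracatinib. Libraries of saracatinib mice were not compared, but entered the filter, the scaling and the estimate of spread. The comparison holds 10 of the 40 libraries of the series, chosen by their labelled stimulation and inhibitor, 5 from bleomycin vehicle mice and 5 from saline vehicle mice. Of 55536 genes in the count table, 18846 passed a low-count filter and were tested. Bleomycin vehicle mice received bleomycin at 1.5 U/kg into the oropharynx, then daily vehicle by oral gavage from day 10, and left lungs were taken on day 28. Saline vehicle mice received saline by the same route and the same gavage. A further comparison used 5 Ad-TGFb vehicle mice, given an adenovirus that carries mouse TGF-β1 under a viral CMV promoter through the nose, and 5 empty vector vehicle mice. No group carries an engineered allele. Each library comes from the left lung of a separate mouse, per the labels. The labels state that both sexes were used and give no sex or age per mouse, and Xist, the RNA of the inactive X chromosome, had 3 to 7 counts in every one of the 10 libraries.

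Bleomycin is an anticancer glycopeptide that binds iron and breaks DNA strands. The lung holds little of the hydrolase that inactivates it, so a dose into the airways injures the alveolar epithelium and capillaries first. An inflammatory phase is followed by fibroblast activation, deposition of collagen and regeneration of the epithelium, and in mice much of the scar later resolves. Day 28 falls in the late, established phase of that course.

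Total counts were 11.4 to 17.3 M (megacounts) in bleomycin libraries and 9.51 to 13.7 M in saline libraries. The first principal component of log2 CPM, a gene's counts scaled to the total of its library, held 59.9% of the variance and separated the groups. Bleomycin library 3 lay farthest from the saline lungs, at -81.0 on that component, against -50.9 to -28.7 in the other 4 bleomycin libraries and 36.2 to 60.6 in the saline libraries. Library 3 was also the highest of the 5 bleomycin libraries for 2384 of the 3888 genes that were higher, and the lowest for 2231 of the 3828 that were lower. The labelled tissue was checked by defining lung markers. Sftpc, of alveolar type 2 cells, averaged 2634 ± 499 CPM in bleomycin lungs and 2121 ± 542 CPM in saline lungs. Ager, of alveolar type 1 cells, averaged 984 ± 113 CPM in bleomycin lungs and 677 ± 226 CPM in saline lungs. Neither passed an adjusted p of 0.05 by edgeR's quasi-likelihood test, and genes of heart muscle and fat were detected too, with values given under muscle. In bulk tissue, fewer cells of a type and less RNA per cell cannot be told apart.

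**Figure D1:**
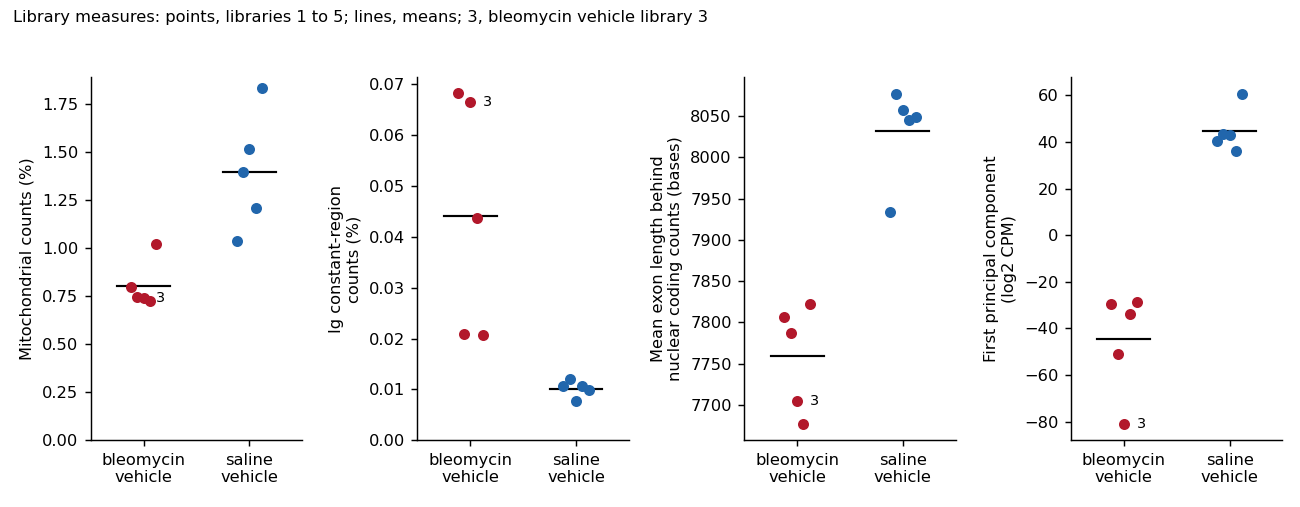
Per-library measures of the 5 bleomycin vehicle and 5 saline vehicle lungs, with the bleomycin group on the left of each panel. The panels show mitochondrial counts (% of counts) and immunoglobulin constant region counts (% of counts). They also show the count-weighted mean exon length of nuclear protein-coding genes (bases) and the first principal component (units of log2 CPM). Points are libraries, lines are group means, bleomycin library 3 is marked, and the groups do not overlap in any of the 4 panels.

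In all, 7716 of 18846 genes (40.9%) differed at an adjusted p under 0.05, the threshold used for every call below. Of these, 3888 (20.6% of those tested) rose with bleomycin and 3828 (20.3%) fell. The changes were mostly modest: 1063 genes rose and 1058 fell by more than 2-fold. More than 4-fold, 291 rose and 130 fell, and more than 16-fold, 38 rose and 5 fell. For 5002 genes (26.5%) the 5 bleomycin and 5 saline libraries did not overlap. The median log2 fold change of all tested genes was -0.03. Of the tested genes, 343 passed the filter only through the bleomycin vehicle libraries, and 169 of these were among the genes that rose. Another 305 passed only through the saline vehicle libraries, and 83 of these were among the genes that fell. Without bleomycin library 3, 6558 genes were called, and 6283 of the 7716 calls (81.4%) were among them.

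**Figure D2:**
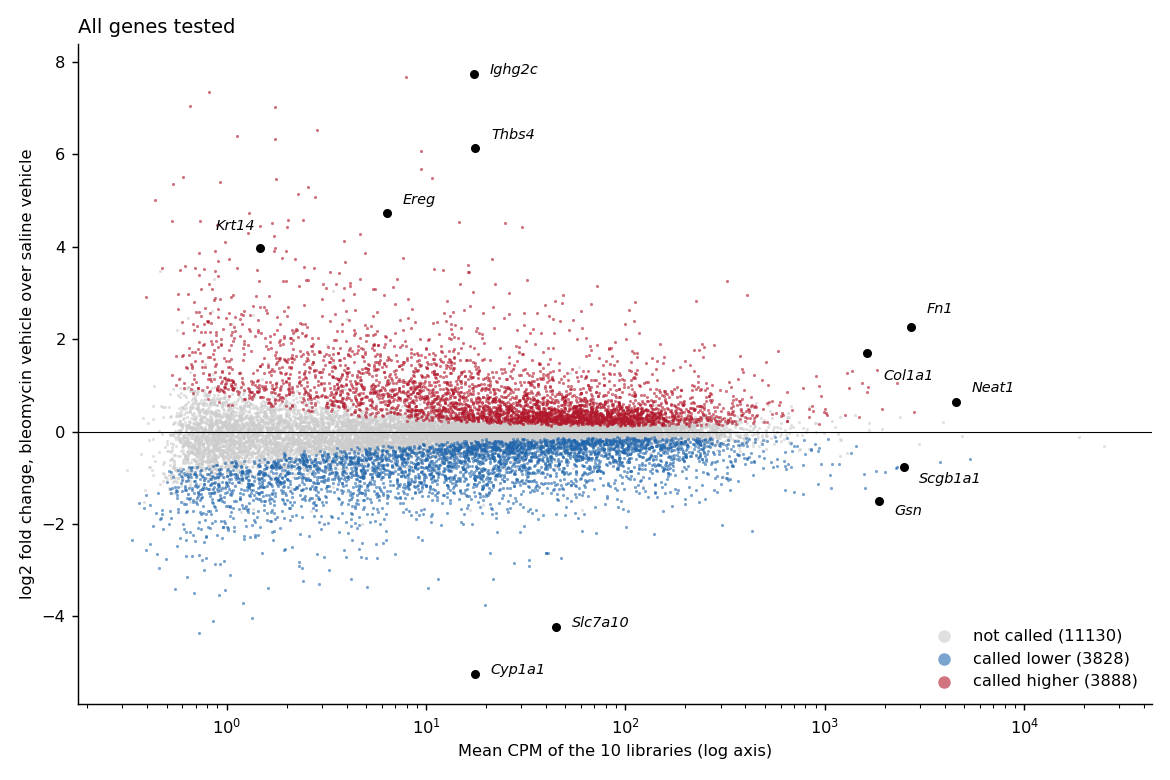
Log2 fold change, bleomycin vehicle over saline vehicle, against mean CPM over the 10 libraries (log axis) for the 18846 tested genes. Of the points, 3888 are marked as higher, 3828 as lower and 11130 as not called, and the largest folds lie above 0 among genes of low abundance.

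In CPM, which grows with transcript length, most of the largest gains were in matrix genes. Others were in a long non-coding RNA, a lipid enzyme, a macrophage enzyme and an actin. Fn1, which encodes fibronectin (chr1:71585520-71653200, GRCm38), had 2932, 4423, 7765, 3314 and 4041 CPM in bleomycin lungs, against 868, 984, 991, 794 and 1033 CPM in saline lungs. The groups did not overlap, library 3 was the highest, and the difference passed the test (edgeR, log2 fold change 2.27 ± 0.27 (SE), adjusted p = 3.19e-06). Collagen chains followed. Col1a1, a chain of type I collagen, had 1781, 2598, 4390.0, 1740.0 and 2016 CPM in bleomycin lungs, against 706, 692, 824, 701 and 905 CPM in saline lungs, and Col4a1, of the basement membrane, had 2681, 3277, 3945, 2967 and 2641 CPM with bleomycin, against 1668, 1453, 1624, 1523 and 1209 CPM with saline. Every bleomycin lung lay above every saline lung for both (1.71 ± 0.22 and 1.05 ± 0.15, log2 fold change ± SE, the form of paired values below). Eln, which encodes the elastin of recoil fibres, averaged 1948 ± 338 CPM in bleomycin lungs and 779.7 ± 127 CPM in saline lungs (log2 fold change 1.32). Also among the 12 largest gains in CPM were Col3a1, Col1a2 and Col4a2 (1.06, 1.27 and 0.96), the collagen-binding protein Sparc (0.95) and the actin Actb (0.43).

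Scd1, the desaturase that makes monounsaturated fatty acids, had 3211, 2344, 1731, 2871 and 2873 CPM in bleomycin lungs, against 1336, 1136, 913, 1174 and 589.8 CPM in saline lungs. Its bleomycin values were lowest in library 3, the reverse of Fn1 and Col1a1 (edgeR, log2 fold change 1.34 ± 0.25 (SE), adjusted p = 0.000326). Lyz2, the lysozyme of macrophages and alveolar type 2 cells, had 2357, 1845, 1645, 2556 and 2058 CPM with bleomycin, against 1365, 1203, 999.8, 1503 and 662 CPM with saline, again with no overlap (log2 fold change 0.87). Per kilobase of exon, the scale on which levels of different genes can be set side by side, Lyz2 had the largest gain of the genes listed, to 1590 CPM per kb in bleomycin lungs, against 871 in saline lungs. The gains next to it were those of Spp1, which encodes osteopontin and was named after its values were seen (436 against 56.1 CPM per kb in bleomycin and saline lungs), and Cd74, the invariant chain of MHC class II (743 against 372). Fn1 stood at 385 CPM per kb in bleomycin lungs, against 79.9 in saline lungs.

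The largest losses were in genes of the club cell, of the cytoskeleton and of mitochondria. Gsn, which encodes the actin-severing protein gelsolin (chr2:35256380-35307892), had 1275, 869, 634, 1237 and 833 CPM in bleomycin lungs, against 2867, 2644, 2785, 2198 and 3298 CPM in saline lungs. The highest bleomycin lung lay below the lowest saline lung (edgeR, log2 fold change -1.51 ± 0.19 (SE), adjusted p = 6.96e-06). Scgb1a1, the secretoglobin of club cells, had 1905, 1381, 1484, 2163 and 2236 CPM with bleomycin, against 2749, 2820.0, 2978, 2840.0 and 4266 CPM with saline (log2 fold change -0.77). Per kilobase it had the largest loss of the genes listed, to 3850 CPM per kb in bleomycin lungs, against 6580 in saline lungs. The club cell enzymes Cyp2f2 and Cbr2 averaged 963 against 2236 CPM and 644 against 1503 CPM in bleomycin and saline lungs. Fmo2, the flavin monooxygenase of lung, had 511, 417, 387, 512 and 371 CPM in bleomycin lungs, against 1039, 1141, 1244, 1060.0 and 1132 CPM in saline lungs, with no overlap (-1.35 ± 0.15). Epas1, the hypoxia-inducible factor HIF-2α abundant in lung endothelium, fell with a log2 fold change of -0.79, and the large scaffold genes Macf1, Tns1 and Syne1 fell with -0.60, -0.77 and -0.91.

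The genes with the largest fold changes were near 0 in saline lungs. Thbs4, a thrombospondin of tendon and injured tissue matrix (chr13:92751590-92794818), had 25.7, 43.2, 53.7, 25.3 and 26.6 CPM in bleomycin lungs, against 0.0746, 0.737, 0.849, 0.356 and 0.419 CPM in saline lungs. Libraries 2 and 3 were the highest and no saline lung reached 1 CPM (edgeR, log2 fold change 6.13 ± 0.71 (SE), adjusted p = 3.08e-06). Col11a1, a minor fibrillar collagen of cartilage, had 16.9, 25.0, 28.0, 10.9 and 11.9 CPM with bleomycin, against 0.224, 0.573, 0.309, 0.267 and 0.419 CPM with saline (log2 fold change 5.67). Kng2, a kininogen gene, had 21.7, 16.4, 15.8, 18.6 and 21.1 CPM in bleomycin lungs, against 0.149, 0.409, 0.154, 0.622 and 0 CPM in saline lungs, and its bleomycin values were close to one another. Kng2 has a close paralog, Kng1, and the counting could have split reads between them (edgeR, log2 fold change 6.07 ± 0.66 (SE), adjusted p = 1.69e-06).

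Ereg, the EGF receptor ligand epiregulin, had 7.69, 7.20, 31.1, 7.16 and 8.33 CPM in bleomycin lungs, against 0.298, 0.655, 0.617, 0.178 and 0.523 CPM in saline lungs. Library 3 stood far above the other bleomycin lungs, and those 4 still lay above all saline lungs (edgeR, log2 fold change 4.72 ± 0.56 (SE), adjusted p = 3.35e-06). Saa3, an acute phase apolipoprotein, had 12.1, 27.0, 72.6, 18.5 and 9.93 CPM with bleomycin, against 0.970, 0.655, 0.849, 2.04 and 1.57 CPM with saline, with library 3 again the highest (log2 fold change 4.54). Without library 3 the log2 fold changes of Ereg and Saa3 were 4.04 and 3.82. Mmp12, the macrophage elastase, had 42.6, 65.2, 70.7, 45.0 and 67.0 CPM in bleomycin lungs, against 3.36, 2.13, 2.55, 2.40 and 3.04 CPM in saline lungs, an even rise over the 5 lungs (edgeR, log2 fold change 4.43 ± 0.37 (SE), adjusted p = 2.23e-07). Clec4n, which encodes the fungal pattern receptor dectin-2 of myeloid cells, rose by 3.73 on the log2 scale, the adhesion molecule Chl1 by 4.51, Megf11 by 3.75, and Cemip, a protein that depolymerises hyaluronan, by 3.60.

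Among the falls, Slc7a10, an exchanger of small neutral amino acids (chr7:35186385-35201114), had 9.49, 2.69, 1.46, 5.30 and 4.09 CPM in bleomycin lungs, against 78.2, 75.5, 74.6, 76.6 and 119 CPM in saline lungs. The 5 saline lungs lay far above every bleomycin lung (edgeR, log2 fold change -4.23 ± 0.33 (SE), adjusted p = 2.23e-07). Colq, the collagen tail of acetylcholinesterase, had 4.66, 2.80, 0.770, 3.71 and 1.74 CPM with bleomycin, against 34.5, 38.3, 38.5, 32.1 and 40.6 CPM with saline (log2 fold change -3.76). Lrat, which esterifies retinol in lipid-storing stellate cells, had 13.1, 8.58, 4.01, 6.98 and 5.97 CPM in bleomycin lungs, against 47.5, 60.9, 44.6, 80.1 and 56.9 CPM in saline lungs, with no overlap (log2 fold change -2.91). Gria1, an AMPA-type glutamate receptor subunit, and Kcna2, a voltage-gated potassium channel, averaged 4.36 against 38.9 CPM and 8.44 against 57.1 CPM in bleomycin and saline lungs. Tmem132d and the carboxylesterase Ces1f fell by 3.38 and 2.64 on the log2 scale.

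Cyp1a1, the cytochrome induced through the aryl hydrocarbon receptor, had 1.15, 1.03, 0.154, 1.15 and 0.972 CPM in bleomycin lungs, against 6.04, 4.83, 5.87, 151 and 3.87 CPM in saline lungs. Saline library 4 stood alone, and the log2 fold change of -5.25 ± 1.10 was -2.51 without it, still called. The inducible HSP70 genes Hspa1a and Hspa1b, which are near-identical so that reads are shared, averaged 6.72 against 48.4 CPM and 12.5 against 82.9 CPM in bleomycin and saline lungs, with no overlap between the groups (-2.85 and -2.73).

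**Figure D3:**
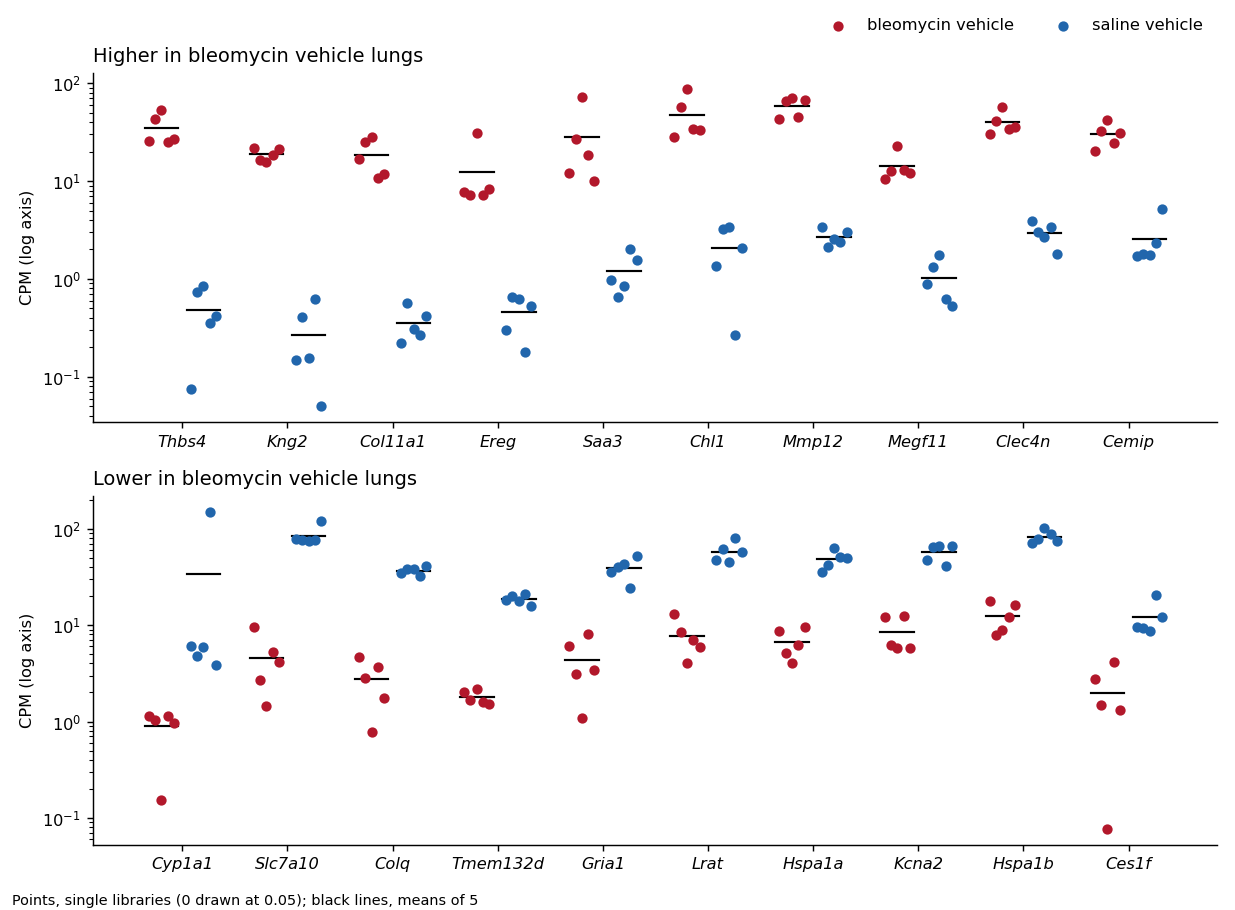
CPM per library (log axis, a value of 0 drawn at 0.05) of the 10 protein-coding genes with the largest rise and the 10 with the largest fall, each with the 5 bleomycin vehicle lungs left of the 5 saline vehicle lungs. Lines are group means; Cyp1a1 in saline library 4, at 150.6 CPM, is far above the other saline lungs.

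A few genes could be given only as bounds or wide ratios. Ibsp, a bone sialoprotein, had 88 counts in the 5 bleomycin libraries and 0 in the 5 saline libraries, at least 25.5-fold higher when the saline group is set at a floor of 3 counts. Wnt10a, a Wnt ligand, had 154 counts in bleomycin libraries and 1 in saline libraries, a ratio of 134 with a 95% counting interval of 23.6 to 5310. Intervals and floors cover counting error only. Below the filter, the bone genes Dmp1 and Fgf23, named after their values were seen, had 87 and 67 counts in bleomycin libraries, against 0 and 3 counts in saline libraries.

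**Figure D4:**
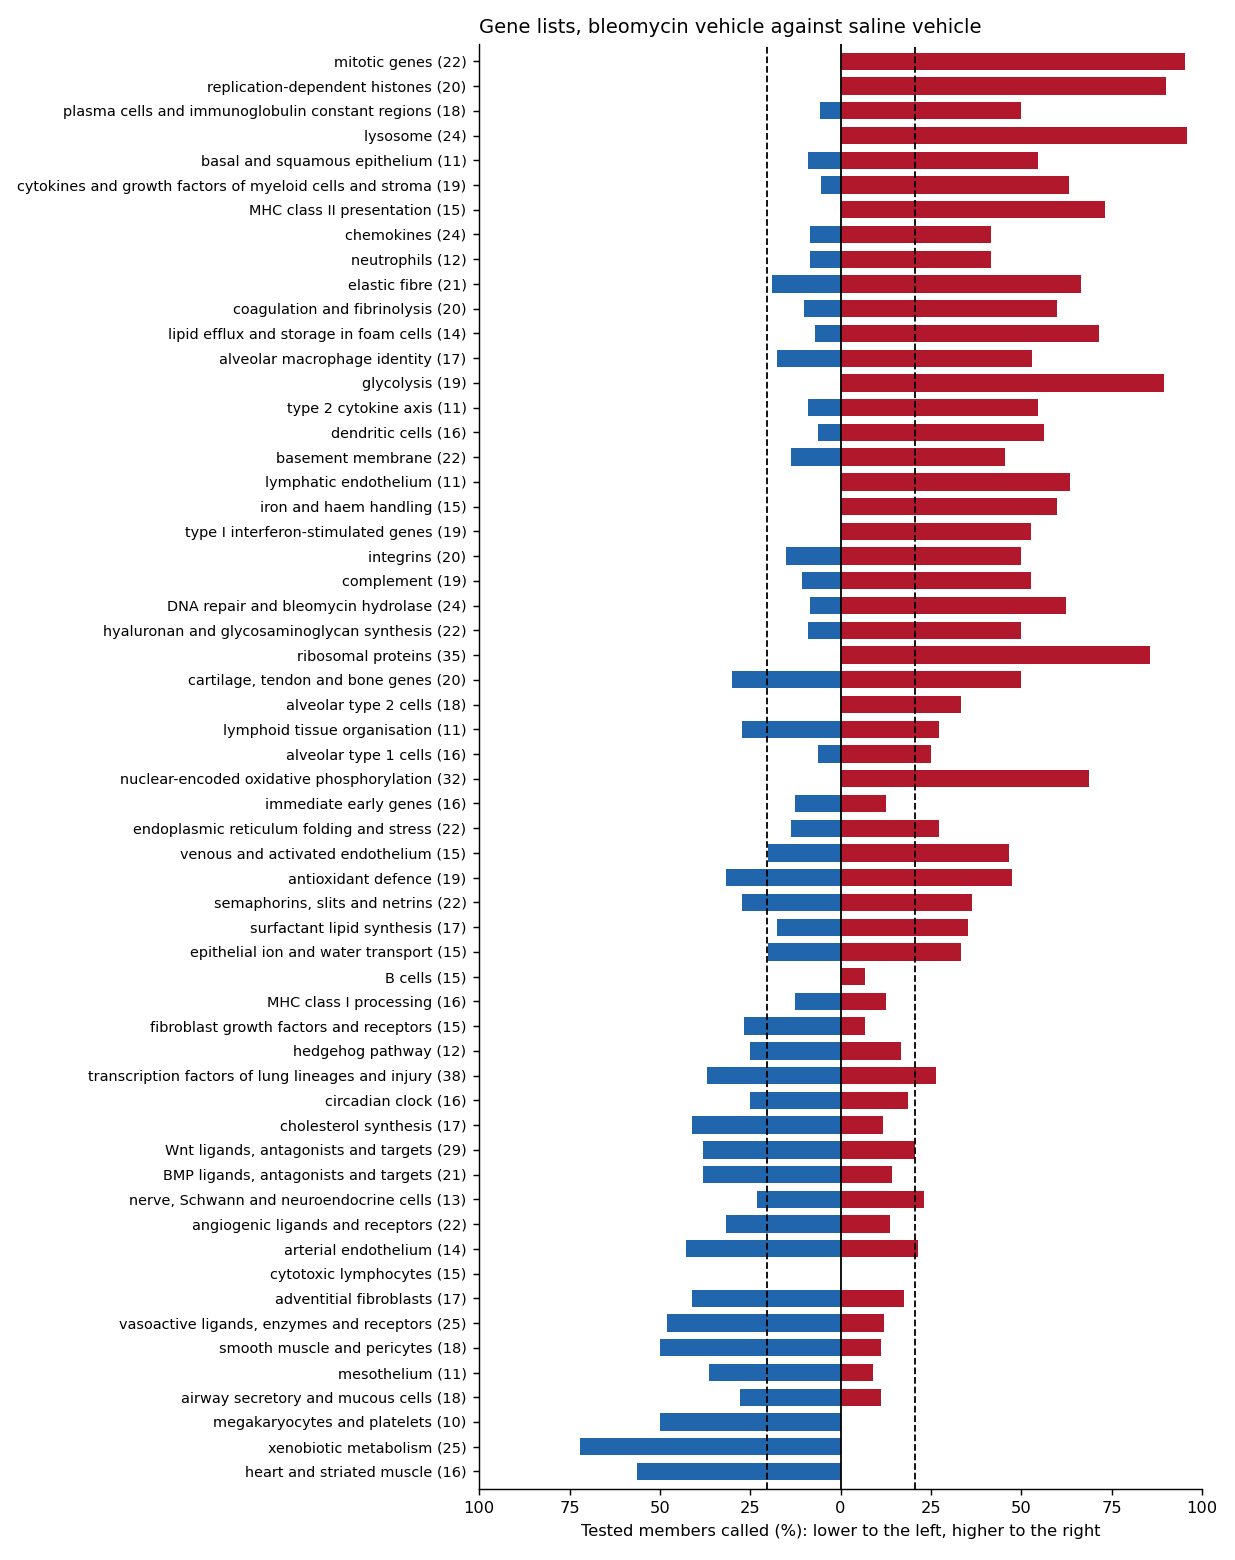
Percent of the tested members of each gene list that were called higher (right) or lower (left), bleomycin vehicle against saline vehicle, for lists with at least 10 tested members, in order of median log2 fold change. Dashed lines mark 20.6% higher and 20.3% lower among all tested genes; mitotic, histone and lysosome lists lie at one end and xenobiotic metabolism and heart muscle at the other.

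Cell division genes rose as a group. Of 22 mitotic genes, whose promoters are known for elements of cell cycle control, 21 rose, against 20.6% of all tested genes. Their median log2 fold change was 1.75, against -0.03 over all tested genes. Without bleomycin library 3, 21 were called. The counts of all lists below are to be read against 20.6% higher, 20.3% lower and 40.9% in either direction among all tested genes. For this and the following lists, where the smaller of the counts of rises and falls was 1 to 3, leaving out 1 library moved it within 0 to 3, apart from that of endoplasmic reticulum genes (3 to 5 lower). Many such genes carry in their promoter a cell cycle genes homology region (CHR, searched as TTTGAA) and CCAAT boxes, elements through which repressor and activator complexes restrict transcription to late cell cycle. The list was named for these elements, so their presence is no result. The RefSeq promoter table (GRCm38.p6) held 17 of the 22 genes. On either strand, CHR letters lay in 12 of 17 windows of 300 bases (70.6%), against 15% of 12270 tested genes and 17.9% of all 32851 windows. CCAAT lay in 15 of 17 (88.2%), against 42% of tested genes and 37.4% of all windows, and both together in 12 of 17, against 5.92% and 6.95%. A match describes the letters and not a bound site. The promoters of 3 of these genes, 150 bases before to 25 after the annotated start, are shown because they carry both elements, with CHR and CCAAT letters of either strand in capitals. They lie at chr9:70421530-70421704, minus strand (Ccnb2), chr10:69352888-69353062, minus strand (Cdk1) and chr2:164769779-164769953, plus strand (Ube2c).
Ccnb2: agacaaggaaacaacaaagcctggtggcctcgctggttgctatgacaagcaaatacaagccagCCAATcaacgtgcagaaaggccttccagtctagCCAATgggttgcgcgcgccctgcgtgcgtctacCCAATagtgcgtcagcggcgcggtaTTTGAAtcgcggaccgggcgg
Cdk1: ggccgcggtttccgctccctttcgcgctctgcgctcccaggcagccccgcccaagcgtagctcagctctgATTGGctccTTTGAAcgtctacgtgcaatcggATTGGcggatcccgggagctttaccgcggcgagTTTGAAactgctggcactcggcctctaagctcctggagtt
Ube2c: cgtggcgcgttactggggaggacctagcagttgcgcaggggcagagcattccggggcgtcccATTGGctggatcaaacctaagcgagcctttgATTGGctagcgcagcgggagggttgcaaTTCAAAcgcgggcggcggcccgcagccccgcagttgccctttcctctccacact

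Ccnb1, the cyclin that drives entry into mitosis, had 3.68, 9.03, 13.9, 4.86 and 6.38 CPM in bleomycin lungs, against 1.19, 1.15, 1.77, 1.07 and 0.838 CPM in saline lungs. Library 3 was the highest and library 1 the lowest of the bleomycin lungs, and none reached down to the saline lungs (edgeR, log2 fold change 2.63 ± 0.35 (SE), adjusted p = 1.06e-05). Cdk1, the kinase partner of cyclin B, had 4.99, 13.4, 20.1, 9.90 and 8.47 CPM with bleomycin, against 2.31, 2.38, 3.16, 2.22 and 2.83 CPM with saline (log2 fold change 2.14). Ube2c, the ubiquitin conjugase that ends mitosis, and Tpx2, a spindle assembly factor, averaged 7.53 against 1.83 CPM and 16.6 against 4.12 CPM in bleomycin and saline lungs. Ccnb2, named after its values were seen and because of its promoter, averaged 7.21 against 2.31 CPM (1.64). The order of the 5 bleomycin lungs was alike for Ccnb1, Ube2c and Tpx2, with libraries 3 and 2 the highest.

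Replication-dependent histones, which are made in S phase, moved with them: 18 of 20 rose (median 1.62). Hist1h3b had 4.50, 10.5, 16.3, 9.02 and 8.54 CPM in bleomycin lungs, against 0.970, 1.47, 2.31, 1.60 and 1.78 CPM in saline lungs, and Hist1h2bk averaged 6.84 against 1.13 CPM in bleomycin and saline lungs. These genes are near-copies of one another, so the value of a single one is uncertain. Of 24 genes of DNA repair and bleomycin inactivation, 15 rose and 2 fell (median 0.40). The exonuclease Exo1 averaged 3.38 against 1.09 CPM and the Fanconi anaemia gene Fanci 4.02 against 1.41 CPM in bleomycin and saline lungs. Blmh, the bleomycin hydrolase, named after its values were seen, had 41.4, 46.1, 46.0, 43.8 and 33.4 CPM in bleomycin lungs, against 35.4, 34.1, 34.4, 30.9 and 37.2 CPM in saline lungs. The ranges overlapped and the rise was small (edgeR, log2 fold change 0.29 ± 0.09 (SE), adjusted p = 0.0104).

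Lysosome genes rose almost without exception: 23 of 24 were called higher (median 1.09), and 23 also without bleomycin library 3. Ctsd, the aspartic protease cathepsin D, had 439, 444, 467, 442 and 389 CPM in bleomycin lungs, against 141, 109, 111, 127 and 108 CPM in saline lungs. The 5 bleomycin lungs were close together and far above the saline lungs (edgeR, log2 fold change 1.87 ± 0.15 (SE), adjusted p = 2.23e-07). Acp5, the tartrate-resistant acid phosphatase, had 39.6, 41.6, 43.2, 38.9 and 44.5 CPM with bleomycin, against 6.86, 15.2, 5.09, 6.31 and 4.19 CPM with saline (log2 fold change 2.45). Atp6v0d2, a subunit of the proton pump known from osteoclasts and macrophages, averaged 79.5 against 15.0 CPM, and Cd68, the macrophage glycoprotein, 56.7 against 12.2 CPM in bleomycin and saline lungs. For Acp5 and Ctsd, library 3 did not stand apart as it did for Fn1 or Ereg.

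Genes of lipid-laden macrophages moved the same way, with 10 of 14 higher and 1 lower (median 0.75). Msr1, a scavenger receptor for modified lipoproteins, had 17.6, 35.5, 45.5, 26.1 and 24.4 CPM in bleomycin lungs, against 1.79, 2.78, 4.17, 3.38 and 1.26 CPM in saline lungs (log2 fold change 3.46). Apoe, the apolipoprotein that accepts cholesterol, averaged 753 ± 93.7 CPM in bleomycin lungs and 264 ± 9.96 CPM in saline lungs, and the oxidised LDL receptor Olr1 and the cholesterol hydroxylase Ch25h rose by 2.17 and 2.20. Of 17 alveolar macrophage genes, 9 rose and 3 fell. The cysteine protease Ctsk averaged 73.6 against 13.6 CPM, the receptor antagonist Il1rn 14.9 against 2.84 CPM, Krt79 1.10 against 6.67 CPM and the lipid droplet protein Cidec 1.86 against 7.34 CPM in bleomycin and saline lungs. The list thus held genes moving in opposite directions, and of the defining markers Marco (3.15 against 4.33 CPM) did not pass the test. Iron-handling genes were 9 of 15 higher (median 0.47), led by the importer Slc39a14 (1.46) and the exporter ferroportin, Slc40a1 (1.36).

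Genes of antigen presentation to helper T cells rose. Of 15 genes of MHC class II presentation, 11 rose (median 0.90), among them the cathepsin Ctss with 367, 408, 483, 364 and 355 CPM in bleomycin lungs, against 59.4, 65.8, 55.2, 59.1 and 39.5 CPM in saline lungs. Every bleomycin lung lay far above every saline lung (edgeR, log2 fold change 2.82 ± 0.25 (SE), adjusted p = 3.88e-07). The costimulatory molecules Cd86 and Cd80 averaged 19.1 against 6.66 CPM and 9.16 against 3.40 CPM, and the thiol reductase Ifi30 83.8 against 36.6 CPM, in bleomycin and saline lungs. Of 16 genes of MHC class I processing, 2 rose and 2 fell (median -0.04), and none was called without bleomycin library 3. The 2 that rose, Psmb8 and Erap1, were also lost without bleomycin library 4 or saline library 2 or 5. The difference between the classes was not tested.

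Immunoglobulin RNA was higher. Constant regions took 0.0440 ± 0.0233% of counts in bleomycin lungs and 0.0102 ± 0.0016% in saline lungs (SD, n = 5 each; exact permutation test, two-sided, p = 0.00794, the smallest it can give; 0.0132 adjusted over 5 library measures). Of 18 plasma cell and constant region genes, 9 rose and 1 fell. Jchain, which joins secreted IgA and IgM, had 52.9, 18.5, 34.0, 33.1 and 14.2 CPM in bleomycin lungs, against 3.58, 3.19, 3.01, 3.73 and 5.44 CPM in saline lungs, with no overlap (edgeR, log2 fold change 3.02 ± 0.79 (SE), adjusted p = 0.00476). Igha, the IgA heavy chain, had 49.5, 44.8, 48.9, 136 and 64.6 CPM with bleomycin, against 12.0, 6.31, 4.94, 6.40 and 22.4 CPM with saline (2.74 ± 0.61), highest in library 4. The IgG genes varied most between mice: Ighg2c had 29.6, 2.00, 137, 3.00 and 1.32 CPM in bleomycin lungs, against 0.149, 0.164, 0.154, 0.178 and 0.105 CPM in saline lungs. Libraries 1 and 3 carried most of it, and the call (edgeR, log2 fold change 7.74 ± 2.23 (SE), adjusted p = 0.00937) was lost without library 3 (5.77, adjusted p = 0.0551). Ighg1 and Ighg2b had log2 fold changes of 7.67 and 5.50, also highest in library 3 (5.30 and 4.76 without it), and reads can be shared between IgG genes. Of 15 B cell genes, 1 was called, Cd22 (0.64), which was not called in 7 of the 10 fits that left out a library, and Cd79a averaged 7.16 against 7.60 CPM.

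For cytotoxic lymphocyte genes, edgeR called 0 of 15 in either direction, with 4 lower at an unadjusted p under 0.05 (median -0.34). DESeq2 and limma voom called 1 lower each, and leaving out single libraries gave 0 to 3 lower. Of 19 interferon-stimulated genes 10 rose (median 0.46), 6 of them without bleomycin library 3. Oas3, a sensor of double-stranded RNA, had 14.2, 20.1, 20.9, 18.1 and 17.3 CPM in bleomycin lungs, against 2.31, 4.18, 5.48, 3.47 and 2.09 CPM in saline lungs (log2 fold change 2.36), while Rsad2, Oas1a and Mx1 rose by 1.09, 0.98 and 0.98. Of 24 chemokines 10 rose and 2 fell, 50% in either direction, against 40.9% of all tested genes. The macrophage chemokines Ccl9 and Ccl6 averaged 44.3 against 7.63 CPM and 167 against 33.2 CPM, Ccl2, which recruits monocytes, 2.81 against 0.651 CPM, and Cxcl10 4.20 against 1.15 CPM, in bleomycin and saline lungs. Of 19 cytokines and growth factors of myeloid cells and stroma 12 rose and 1 fell, with the TNF family ligand Tnfsf18 at 3.98 and Osm at 2.33. Of 19 complement genes 10 rose and 2 fell, among them C1qb with 76.4, 97.7, 145, 98.3 and 82.2 CPM in bleomycin lungs, against 15.4, 25.8, 26.9, 19.1 and 17.8 CPM in saline lungs (2.25 ± 0.23) and the receptor C3ar1 with 2.14. Ptprc, the pan-leukocyte CD45, averaged 242 ± 15.5 CPM in bleomycin lungs and 152 ± 24.6 CPM in saline lungs and rose.

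Genes of energy metabolism rose by small steps, apart from those of the mitochondrial genome. Of 19 glycolysis genes 17 rose (median 0.65). Eno1, the enolase, had 117, 153, 222, 143 and 159.5 CPM in bleomycin lungs, against 76.6, 66.6, 64.5, 64.1 and 64.5 CPM in saline lungs, with no overlap (edgeR, log2 fold change 1.24 ± 0.14 (SE), adjusted p = 1.71e-06), and Gapdh, Pkm and Ldha rose by 1.00, 0.78 and 0.76. Of 32 nuclear-encoded genes of oxidative phosphorylation 22 rose (median 0.26), 16 without library 3. Cox5a, of cytochrome oxidase, averaged 31.6 against 18.7 CPM in bleomycin and saline lungs. Counts from the mitochondrial genome took 0.806 ± 0.123% in bleomycin lungs and 1.40 ± 0.30% in saline lungs (SD, n = 5 each; exact permutation p = 0.00794, 0.0132 adjusted over 5 measures). mt-Nd2, a subunit of complex I, had 603, 584, 539.9, 529 and 656 CPM in bleomycin lungs, against 966, 1342, 1470.0, 1112 and 1477 CPM in saline lungs, and mt-Cytb, of complex III, averaged 1412 against 2587 CPM (log2 fold changes -1.13 and -0.87). Ribosomal protein genes were 30 of 35 higher (median 0.37), for example Rplp0 with 0.64, 24 of 35 without library 3.

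Detoxifying enzymes fell as a group. Of 25 xenobiotic metabolism genes 18 were lower, with a median of -1.06, and 15 without bleomycin library 3. Gstm1, a glutathione transferase, had 117, 77.9, 53.3, 135 and 119 CPM in bleomycin lungs, against 287, 272, 259.9, 282 and 386 CPM in saline lungs. No bleomycin lung reached the lowest saline lung (edgeR, log2 fold change -1.57 ± 0.20 (SE), adjusted p = 9.75e-06). Gsta3, another glutathione transferase, had 58.1, 40.2, 23.1, 62.6 and 47.5 CPM with bleomycin, against 138, 143, 152, 152 and 154 CPM with saline (log2 fold change -1.68). The aldehyde dehydrogenase Aldh3a1 averaged 10.7 against 31.3 CPM and the carboxylesterase Ces1g 2.29 against 7.37 CPM in bleomycin and saline lungs. Many of these enzymes are made by club cells, whose marker Scgb1a1 fell too, and the part of those cells in the list's fall was not tested.

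Antioxidant genes went both ways, 9 higher and 6 lower of 19 (median 0.10). The metallothioneins, small cysteine-rich proteins that bind zinc and copper, led the rises. Mt2 had 44.8, 51.7, 129.5, 59.1 and 22.9 CPM in bleomycin lungs, against 7.16, 7.86, 12.8, 10.8 and 13.3 CPM in saline lungs. Library 3 was the highest and library 5 the lowest of the bleomycin lungs, which lay above all saline lungs (edgeR, log2 fold change 2.57 ± 0.41 (SE), adjusted p = 7.83e-05). Mt1 had 47.7, 40.7, 125, 52.9 and 30.3 CPM with bleomycin, against 12.8, 14.1, 19.8, 16.8 and 26.7 CPM with saline, a similar order (1.72 ± 0.35). Slc7a11, the cystine importer, averaged 14.3 against 4.54 CPM, and the haem oxygenase Hmox1 36.6 against 19.2 CPM. Metallothionein promoters are known for metal response elements (MRE, core searched as TGCACNC and TGCGCNC on both strands), bound by the zinc-sensing factor MTF1. Both RefSeq promoters (GRCm38.p6) held the core, as did 39.1% of tested genes and 25.7% of all windows, and the match is a description only. They are shown because the genes are neighbours that moved together, with core letters of either strand in capitals, at chr8:94178939-94179113, plus strand (Mt1) and chr8:94172468-94172642, plus strand (Mt2), 150 bases before to 25 after the start.
Mt1: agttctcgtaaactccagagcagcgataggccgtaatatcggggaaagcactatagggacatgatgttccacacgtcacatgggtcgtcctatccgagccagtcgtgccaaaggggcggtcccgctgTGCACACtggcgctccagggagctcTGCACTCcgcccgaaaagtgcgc
Mt2: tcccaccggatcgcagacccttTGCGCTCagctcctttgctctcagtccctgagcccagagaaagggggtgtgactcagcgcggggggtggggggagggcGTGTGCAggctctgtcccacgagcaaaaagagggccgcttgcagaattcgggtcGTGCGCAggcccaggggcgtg

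In the epithelium, the basal and squamous genes Krt14 and Sprr1a were near 0 in saline lungs. Summed over the list, levels were 99.8 to 145 CPM in bleomycin lungs and 78.2 to 109 CPM in saline lungs. Krt14, a keratin of basal cells, had 3.35, 1.09, 1.46, 2.56 and 5.41 CPM in bleomycin lungs, against 0.0746, 0.246, 0.309, 0.178 and 0 CPM in saline lungs. Every bleomycin lung was above every saline lung, at low levels (edgeR, log2 fold change 3.97 ± 0.80 (SE), adjusted p = 0.000629). Sprr1a, a cornified envelope protein, had 3.19, 4.63, 3.77, 7.07 and 4.72 CPM with bleomycin, against 0, 0.573, 0.926, 0.622 and 0.209 CPM with saline (log2 fold change 3.28). Krt5, the defining basal keratin, had 8.02, 1.37, 2.16, 5.66 and 8.54 CPM in bleomycin lungs, against 0.0746, 2.95, 1.16, 0.0889 and 0.105 CPM in saline lungs, with overlap, and its call (log2 fold change 2.50 ± 0.95 (SE), adjusted p = 0.0409) was lost in 7 of the 10 fits that left out a library. Of 11 genes 6 rose, but 3 did so without bleomycin library 1 or without saline library 1, 4 or 5. Col17a1, a hemidesmosome collagen on the same list, fell, with means of 2.08 against 10.5 CPM.

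In alveoli and airways, members of each list moved in part. Of 18 type 2 cell genes 6 rose (median 0.34; 4 to 9 when single libraries were left out), among them the proteases Ctsh (1.08) and Napsa (0.81), while Sftpc (0.31) and Sftpb did not pass. Of 16 type 1 cell genes 4 rose and 1 fell, 31.2% in either direction, against 40.9% of all tested genes. The number that rose was 7 with limma voom and with only the 10 compared libraries, and 6 without saline library 1. Cldn18, a tight junction claudin, was at 698 against 345 CPM in bleomycin and saline lungs. Pdpn was at 136 against 69.7 CPM and the cytochrome Cyp4b1 at 133 against 367 CPM. Of 18 airway secretory genes 2 rose and 5 fell (5 to 8 fell when single libraries were left out), 38.9% in either direction, near the 40.9% of all tested genes. Retnla, a secreted protein also known as a marker of alternatively activated macrophages, had 108, 157, 260.4, 132 and 265 CPM in bleomycin lungs, against 18.7, 23.1, 78.8, 21.4 and 33.4 CPM in saline lungs, and Scgb3a2, a secretoglobin, averaged 164 ± 74.2 CPM in bleomycin lungs and 392 ± 101 CPM in saline lungs (log2 fold changes 2.39 and -1.25). Foxj1, the factor of ciliated cells, averaged 68.7 ± 34.2 CPM in bleomycin lungs and 133 ± 44.9 CPM in saline lungs and fell.

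In vessels, several genes of venules and lymphatics rose. Lrg1, a glycoprotein of activated venules, had 181, 173, 233, 192 and 198 CPM in bleomycin lungs, against 22.8, 29.2, 28.8, 41.1 and 18.6 CPM in saline lungs. The groups were far apart (edgeR, log2 fold change 2.80 ± 0.26 (SE), adjusted p = 3.88e-07). Ackr1, the chemokine receptor of venules, had 2.29, 3.94, 4.55, 3.09 and 3.82 CPM with bleomycin, against 0.149, 0.0819, 0.463, 0.267 and 0.314 CPM with saline (log2 fold change 3.76), and Selp, the selectin that captures leukocytes, averaged 11.3 against 3.96 CPM. Of 15 venous and activated endothelial genes 7 rose and 3 fell, and of 14 arterial genes 3 rose and 6 fell. Dkk2, a Wnt antagonist on the arterial list, had 6.14, 11.0, 10.5, 6.80 and 10.1 CPM in bleomycin lungs, against 0.522, 0.491, 0.849, 0.0889 and 0.209 CPM in saline lungs (4.28 ± 0.47), and Ltbp4 and Gja5 had log2 fold changes of -1.26 and -0.69. Of 11 lymphatic genes 7 rose (median 0.48). Prox1, the factor that sets lymphatic identity, had 17.3, 22.1, 16.7, 17.9 and 19.9 CPM in bleomycin lungs, against 7.16, 9.17, 7.64, 7.47 and 7.33 CPM in saline lungs, with no overlap (1.28 ± 0.18), and Reln and Mmrn1 averaged 57.3 against 24.1 CPM and 55.7 against 23.9 CPM. Pan-endothelial Pecam1 (469.8 against 530.2 CPM) did not pass the test.

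More vasoactive and contractile genes fell than rose. Of 25 vasoactive ligands, enzymes and receptors 12 fell and 3 rose (median -0.50). Adra1a, an α1-adrenergic receptor, had 17.8, 8.58, 5.62, 15.6 and 9.72 CPM in bleomycin lungs, against 64.4, 72.4, 70.7, 66.5 and 77.9 CPM in saline lungs. The lowest saline lung was far above the highest bleomycin lung (edgeR, log2 fold change -2.63 ± 0.28 (SE), adjusted p = 1.29e-06). Npr3, the clearance receptor of natriuretic peptides, had 89.6, 83.8, 102, 62.6 and 54.5 CPM with bleomycin, against 254, 196, 186, 286 and 119 CPM with saline (-1.41 ± 0.27). Ramp3, a partner of the adrenomedullin receptor, was at 29.1 CPM in bleomycin library 3 and 4.03 to 5.60 CPM in the other bleomycin lungs, against 1.99 to 5.25 CPM in saline lungs, and its rise (1.61) was not called without that library (0.63, adjusted p = 0.0529). Of 18 smooth muscle and pericyte genes 9 fell and 2 rose (median -0.59). Cnn1, the calponin of smooth muscle, had 23.1, 26.6, 24.0, 27.7 and 37.0 CPM in bleomycin lungs, against 64.1, 84.5, 89.5, 50.1 and 106 CPM in saline lungs (-1.51 ± 0.29), whereas Rgs5, a pericyte gene, averaged 36.3 ± 16.1 CPM in bleomycin lungs and 7.61 ± 1.37 CPM in saline lungs and rose. On this list, Actc1, which encodes the actin of heart muscle, and Myh11 fell, with log2 fold changes of -1.78 and -1.12.

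Heart and striated muscle genes moved alongside. Of 16, 9 fell (median -1.15), and their summed level was 79.7 to 199 CPM in bleomycin lungs, against 219 to 586 CPM in saline lungs. Myh6, the atrial myosin, had 71.5, 14.3, 12.8, 46.4 and 49.0 CPM in bleomycin lungs, against 112, 215, 209.7, 66.1 and 208 CPM in saline lungs, and the groups overlapped. Muscle of the pulmonary veins or of attached heart tissue gives such RNA, and its part in the fall of the contractile genes was not tested. Summed adipocyte genes were 16.3 to 91.4 CPM in bleomycin lungs and 48.9 to 141 CPM in saline lungs, and platelet genes, of which 5 of 10 fell (3 without bleomycin library 2 or saline library 2, and 2 without saline library 1), 24.3 to 34.3 CPM in bleomycin lungs and 37.0 to 65.4 CPM in saline lungs. Erythroid genes ranged from 54.2 to 307 CPM with bleomycin and from 7.96 to 344 CPM with saline. edgeR called 0 of the 6 erythroid genes, with 0 at an unadjusted p under 0.05, and DESeq2 and limma voom called 0. The liver gene Alb had 10 counts in bleomycin libraries and 19 in saline libraries.

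Matrix genes outside the fibrillar collagens were higher in several classes. Of 21 elastic fibre genes 14 rose and 4 fell (median 0.83). Fbn2, the fibrillin known from developing tissue, averaged 19.0 against 3.63 CPM, and Ltbp4 and Efemp1, of mature elastic fibres, 373 against 895 CPM and 51.2 against 116 CPM, in bleomycin and saline lungs. Of 22 basement membrane genes 10 rose and 3 fell (median 0.49). Lama1, a laminin chain of embryonic basement membranes, had 63.3, 92.8, 148, 69.1 and 85.5 CPM with bleomycin, against 13.7, 13.1, 15.9, 34.5 and 8.90 CPM with saline (2.41 ± 0.37). Of 22 genes listed under hyaluronan and glycosaminoglycan synthesis 11 rose and 2 fell. The largest rises were those of Cemip, which depolymerises hyaluronan, and of the hyaluronan synthase Has2, which averaged 6.97 against 0.800 CPM.

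Genes known from cartilage, tendon and bone moved in both directions. Of 20 tested 10 rose and 6 fell (median 0.34), and their summed level was 662 to 776 CPM in bleomycin lungs, against 891.5 to 1033 CPM in saline lungs. Fmod, the small collagen-binding proteoglycan fibromodulin, had 78.0, 90.7, 103, 85.7 and 74.5 CPM in bleomycin lungs, against 8.20, 7.62, 11.0, 16.4 and 12.2 CPM in saline lungs. The groups did not overlap (edgeR, log2 fold change 2.97 ± 0.33 (SE), adjusted p = 2.21e-06). Comp, the cartilage oligomeric matrix protein, averaged 1.81 against 0.360 CPM, while the chondrocyte gene Cytl1 averaged 1.81 against 7.04 CPM. Of 20 integrins 10 rose and 3 fell, with Itgb2 of leukocytes at 1.69, Itgb6, the epithelial partner of the αv chain that activates TGF-β, at 1.34, and Itga8 at -1.26. Of 20 coagulation and fibrinolysis genes 12 rose and 2 fell (median 0.76; 1 fell without bleomycin library 3). F7, clotting factor VII, had 39.2, 48.0, 46.6, 39.2 and 54.9 CPM in bleomycin lungs, against 15.5, 12.7, 10.6, 15.3 and 9.42 CPM in saline lungs (1.84 ± 0.21).

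Wnt genes moved in both directions. Sfrp1, a secreted Wnt antagonist, had 67.1, 131, 229, 79.3 and 79.6 CPM in bleomycin lungs, against 14.4, 17.9, 20.1, 17.2 and 16.3 CPM in saline lungs. Library 3 was the highest and no bleomycin lung overlapped the saline lungs (edgeR, log2 fold change 2.77 ± 0.29 (SE), adjusted p = 1.32e-06). Wnt2, a ligand of the alveolar mesenchyme, had 4.83, 4.23, 5.08, 3.80 and 3.75 CPM with bleomycin, against 16.3, 16.7, 12.0, 12.1 and 18.1 CPM with saline (-1.79 ± 0.17). Of 29 Wnt genes 6 rose and 11 fell, but 5 fell without bleomycin library 2 or without saline library 5. Of 21 BMP genes 3 rose and 8 fell (5 fell without bleomycin library 3), 52.4% in either direction, against 40.9% of all tested genes. Chrdl1, a BMP antagonist, averaged 6.82 against 27.3 CPM, and Smad6, an inhibitory Smad, 71.7 against 159 CPM. Etv4, a factor downstream of FGF receptors, averaged 4.10 ± 2.54 CPM in bleomycin lungs and 0.292 ± 0.198 CPM in saline lungs and rose by 3.73.

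Of 38 transcription factors of lung lineages and injury 10 rose and 14 fell. Sox11 averaged 8.21 against 37.0 CPM, while Tfec, a macrophage factor, averaged 12.0 against 4.04 CPM, in bleomycin and saline lungs. Of 16 clock genes 3 rose and 4 fell, shares near those of all tested genes. Dbp, an output factor of the clock, had 10.9, 30.7, 16.0, 23.7 and 11.6 CPM in bleomycin lungs, against 7.61, 3.60, 5.17, 4.71 and 7.01 CPM in saline lungs (1.73 ± 0.47), and Npas2, a partner of BMAL1, had 18.4, 8.63, 7.17, 13.8 and 21.2 CPM with bleomycin, against 33.0, 49.9, 38.5, 37.3 and 44.5 CPM with saline (-1.55 ± 0.24). The sources used here do not state the time of day of harvest.

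Long non-coding RNAs fell more often than they rose. Of 1704 tested 108 rose and 427 fell, with a median of -0.28, against 3609 and 3057 of 14738 protein-coding genes (median 0.01). H19, an imprinted RNA of fetal tissue, had 1.06, 3.20, 5.70, 1.33 and 1.46 CPM in bleomycin lungs, against 0.522, 0.573, 0.154, 0.445 and 0.209 CPM in saline lungs. Its values were low, with libraries 3 and 2 the highest (edgeR, log2 fold change 2.70 ± 0.45 (SE), adjusted p = 0.000115). AU015791, Gm6209 and Gm26870 rose by 3.54, 3.87 and 4.52. The exons of Gm26870 overlap those of other genes, so its reads are uncertain. 2610300M13Rik had 76 counts in bleomycin libraries and 1 in saline libraries. B530045E10Rik had 0.818, 0.915, 0.616, 1.24 and 0.833 CPM with bleomycin, against 7.31, 10.6, 10.8, 7.91 and 9.32 CPM with saline (-3.37 ± 0.33). Gm6213, Gm13387, Gm39094 and Gm10421 had log2 fold changes of -4.03, -3.20, -2.95 and -2.87.

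Protein-coding genes of the longest genomic span fell more often than they rose, and those of the other span classes did not. With protein-coding genes divided by genomic span into 5 classes of like size, in the longest, 73894 bases or more, 21.2% rose and 29.5% fell (median -0.07). In the shortest, up to 8350 bases, 25.8% rose and 17.1% fell (median 0.04). The classes between were close to the shortest, with 24.5 to 25.9% higher and 18.3 to 19.8% lower. When a change above 1.5-fold was required, 137 genes of the longest class rose and 140 fell. Weighted by counts, mean exon length of nuclear protein-coding genes was 7760 ± 64.6 bases in bleomycin lungs and 8032 ± 56.4 bases in saline lungs (SD, n = 5 each; exact permutation p = 0.00794, 0.0132 adjusted over 5 measures). The share of counts in non-coding and TEC genes, 6.72 ± 0.65% in bleomycin lungs and 7.45 ± 0.72% in saline lungs, did not pass the test (exact permutation p = 0.127, 0.159 adjusted), nor did total counts (exact permutation p = 0.19).

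Whether the 20 genes with the largest folds changed to the same extent in the other injury was tested by the difference of effects, bleomycin over saline minus Ad-TGFb over empty vector, in 1 fit of 40 libraries. Of 19529 genes 2951 (15.1%) differed. The 20 genes were chosen for their bleomycin change, which the difference contains, and the models also differ in route and in the agent of the controls. For 17 of 20 the difference was called. Thbs4 changed by 6.16 ± 0.60 against 0.75 ± 0.77 on the log2 scale with bleomycin and with Ad-TGFb (difference 5.41 ± 1.10 (SE), adjusted p = 0.000807, edgeR). Slc7a10 changed by -4.21 ± 0.32 against -0.16 ± 0.28 (difference -4.05), Kng2 by 6.09 ± 0.59 against 0.14 ± 0.43 (difference 5.95) and Lrat by -2.89 ± 0.31 against 0.12 ± 0.28 (difference -3.01). Mmp12 and Clec4n were called in both injuries, with 4.45 ± 0.34 against 2.25 ± 0.33 and 3.76 ± 0.33 against 1.59 ± 0.31, and the larger change with bleomycin. Colq and Gria1 fell in both, with -3.74 ± 0.34 against -1.09 ± 0.30 and -3.16 ± 0.30 against -0.75 ± 0.27. The differences of Hspa1a (-1.49 ± 0.93 (SE), adjusted p = 0.308), Hspa1b (-1.52, adjusted p = 0.273) and Ces1f (-1.61, adjusted p = 0.065) did not pass. That of Cyp1a1 (-5.11) was lost without saline library 4 (-2.39, adjusted p = 0.0915).

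**Figure D5:**
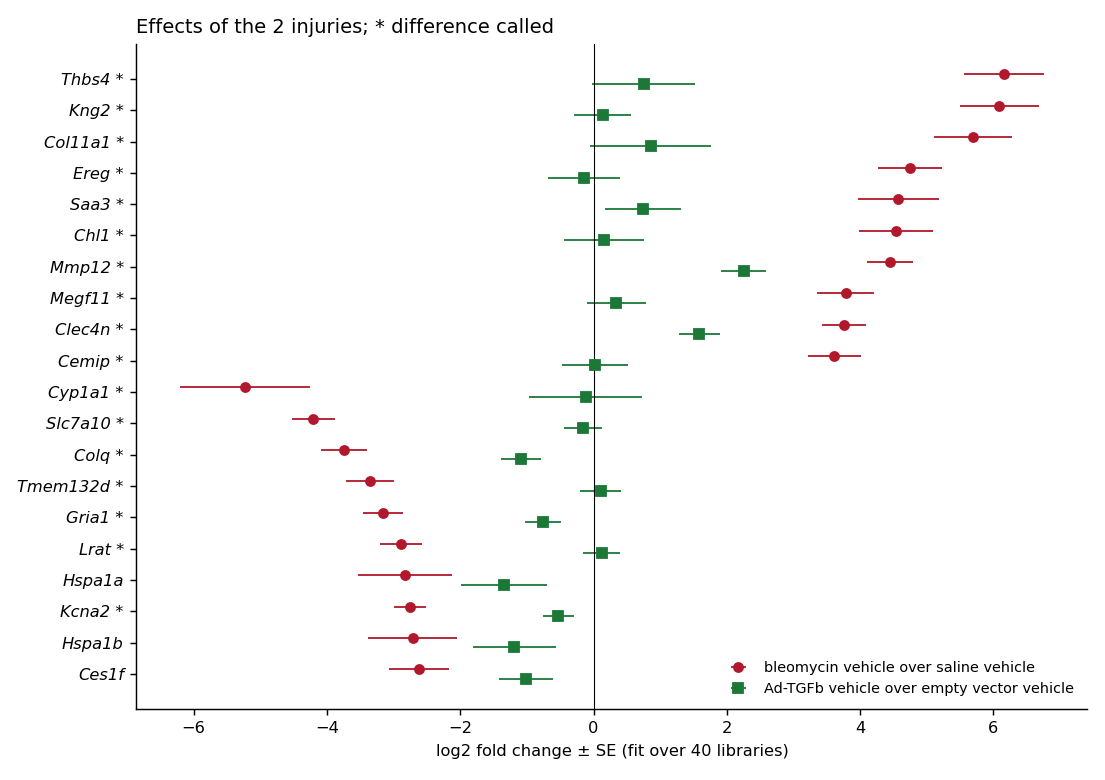
Log2 fold change ± SE of the 20 genes with the largest folds, for bleomycin vehicle over saline vehicle and for Ad-TGFb vehicle over empty vector vehicle, from 1 fit of 40 libraries. An asterisk marks the 17 genes whose difference of effects was called; Hspa1a, Hspa1b and Ces1f carry none.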

How the data were processed

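Libraries were made from left lung RNA depleted of ribosomal RNA, using a kit that keeps strand, per the labels' protocols. Per the submitters' processing notes, the tools were STAR 2.6.1d, Picard, Subread 1.6.3 with featureCounts, and edgeR, and the builds mm9 and GRCm38. Whether counting used strand is not stated there, which leaves values of antisense, overlapping and near-identical genes uncertain. The authors deposited whole-number counts per gene and library, and these raw counts were used. Gene names and coordinates came from GENCODE M21 (GRCm38), matched by identifier for 55536 of 55536 genes.

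Everything else was computed here in R 4.3.3. Genes were filtered with filterByExpr by group (minimum count 10, minimum total 15), scaled by TMM and tested with the quasi-likelihood test of edgeR 4.0.16 in the 20 libraries of the bleomycin model, as 4 groups with no covariate. Calls were made at a Benjamini-Hochberg adjusted p under 0.05, adjusted across every tested gene. The edgeR test gives no SE. Each SE of a log2 fold change was therefore derived as its absolute value divided by the square root of the F statistic. The difference between injuries was fitted over 40 libraries in 8 groups. CPM uses TMM-scaled totals, and log2 CPM a prior count of 2. Library measures were compared with exact two-sided permutation tests. Replicates of one group differed beyond counting noise (chi-square over its degrees of freedom 4.29 to 35.1 on genes of 20 or more counts), so each library counts once.

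Named were the 12 called, non-overlapping genes with the largest gain and with the largest loss in mean CPM, the 10 protein-coding genes per side with the largest fold (at least 10 CPM in the higher group), the 5 lncRNA genes per side with the largest fold (at least 1 CPM) and up to 4 called members of each of 63 gene lists with the largest change. Some genes that this rule names are not reported here. Lists were written from general knowledge and are described by counts and medians without a set test. The comparison, members and lists were chosen with earlier results of these data known. Alternatives were no low-count filter, size factors of DESeq2 in place of TMM, DESeq2 1.42.0 itself, limma voom (3.58.1) with quality weights, only the compared libraries, a 1.5-fold minimum, and leaving out each library. The p-values of edgeR rest on the spread between these mice within groups, estimated over all groups of a fit, saracatinib mice included. The authors' shorter tables, raw reads and saracatinib comparisons were not used.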

Additional observations from a re-analysis of the deposited data

Results flagged for a closer look

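In 118 groups of 5 libraries, the highest or lowest value of 16 stood far from the other 4 by Dixon's criterion. Chance flags about 1 in 20 groups. Bleomycin library 3 was the one concerned for Ereg (31.05 CPM, others 7.16 to 8.33), Saa3 (72.58 CPM, others 9.93 to 27.0), Megf11 (23.04 CPM, others 10.4 to 12.9) and Cyp1a1 (0.1541 CPM, others 0.972 to 1.15). Bleomycin library 5 was the highest for mt-Cytb (1787 CPM, others 1283 to 1357), mt-Nd5 (1566 CPM, others 1149 to 1233) and the share of mitochondrial counts (1.021%, others 0.725 to 0.797%), and the lowest for Gm6213 (0.0694 CPM, others 0.154 to 0.177). Saline library 5 was the highest for Scgb1a1 (4266 CPM, others 2749 to 2978), Cemip (5.13 CPM, others 1.72 to 2.31) and Slc7a10 (119.2 CPM, others 74.6 to 78.2). Saline library 4 was the highest for Cyp1a1 (150.6 CPM, others 3.87 to 6.04), Gm13387 (42.5 CPM, others 11.9 to 19.1) and AU015791 (0.5335 CPM, others 0 to 0.154). Saline library 2 held the single saline count of 2610300M13Rik (0.08189 CPM), and saline library 1 had the lowest count-weighted mean exon length (7934 bases, others 8045 to 8077).

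The effect of bleomycin differed from that of Ad-TGFb, by edgeR's test of the difference, in 17 of 20 genes chosen for their bleomycin change. As log2 effect of bleomycin minus log2 effect of Ad-TGFb, the differences among genes higher with bleomycin were 5.41 for Thbs4, 5.95 for Kng2, 4.84 for Col11a1, 4.90 for Ereg, 3.83 for Saa3, 4.38 for Chl1, 2.20 for Mmp12, 3.44 for Megf11, 2.17 for Clec4n and 3.59 for Cemip. Among genes lower with bleomycin they were -5.11 for Cyp1a1, -4.05 for Slc7a10, -2.65 for Colq, -3.46 for Tmem132d, -2.41 for Gria1, -3.01 for Lrat and -2.23 for Kcna2. The difference of Cyp1a1 was not called without saline library 4 (-2.39, adjusted p = 0.0915).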

How the results depend on the processing

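Against 7716 genes called, 7720 were called with DESeq2's size factors, 7141 with no low-count filter, 7993 with DESeq2, 8112 with limma voom and 7023 with only the 10 compared libraries, and no call changed sign in these fits. Requiring a change above 1.5-fold left 1524 genes, 933 higher and 591 lower, and 243 of the 637 called list members, since that test asks for larger changes. Leaving out 1 library gave 6558 (without bleomycin library 3) to 7878 (without bleomycin library 5) calls, 3373 to 3953 higher and 3109 to 3925 lower, and 579 to 626 list members. The difference between injuries was called for 2951 genes, for 2188 to 3223 under the other settings and for 2245 (without empty vector library 3) to 3849 (without empty vector library 1) with 1 library left out. Of the values of single genes, 4255 log2 fold changes kept direction and call and 185 kept direction but lost the call, as did 1 difference, while 6 differences gained it; the cause was not tested. Beside those given above, the genes not called in every fit included Junb, Pmvk and Gp2. Junb had a log2 fold change of 0.39 and Pmvk 0.31 without bleomycin library 3, against 0.78 and 1.04 with all libraries. Lyz2, Sparc, Scgb1a1, Epas1, Cldn18, Pdpn, Myh11, Smad6 and Dbp, among others reported above, were not called with the 1.5-fold minimum. No paired analysis was possible because the replicate numbers were given in accession order and pair no mice. At 9.51 to 17.3 M counts per library, 20635 of 55536 genes had no count in the 10 libraries, and genes below the filter could not be tested.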

Other observations

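Further immune groups were measured. Of 16 dendritic cell genes 9 rose and 1 fell (median 0.53): the actin bundler Fscn1 averaged 55.3 against 14.9 CPM, the factor Batf3 3.85 against 1.70 CPM and Cacnb3 44.7 against 21.4 CPM in bleomycin and saline lungs. Of 11 genes of the type 2 cytokine axis 6 rose and 1 fell, 63.6% in either direction, against 40.9% of all tested genes. The chemokine Ccl17 averaged 8.06 against 3.22 CPM and the EGF receptor ligand Areg 15.6 against 6.30 CPM. A further 8 listed members lay below the filter and were not tested. Counts in bleomycin and saline libraries were 3 and 6 for Il4, 2 and 4 for Il5 and 0 and 1 for Il13. Il9 had 0 and 0, Il25 0 and 1, Ccl24 10 and 20, Chil4 33 and 15 and Il13ra2 7 and 1. Of 12 neutrophil genes 5 rose and 1 fell, 50% in either direction, against 40.9% of all tested genes. Another 5 listed neutrophil genes lay below the filter. In bleomycin and saline libraries Ly6g had 1 and 1 counts, Ngp 8 and 9, Camp 3 and 1, Elane 1 and 2 and Mpo 2 and 0. Trem1, a receptor that amplifies inflammation, had 3.11, 4.97, 20.6, 4.07 and 2.98 CPM in bleomycin lungs, against 1.79, 0.901, 2.01, 2.49 and 0.419 CPM in saline lungs, and without bleomycin library 3 its log2 fold change of 2.20 was 1.29. The collagenase Mmp8 averaged 5.66 against 1.40 CPM. Pdcd1, the checkpoint receptor PD-1, had 3.11, 2.69, 8.63, 3.62 and 2.22 CPM with bleomycin, against 0.224, 0.491, 2.01, 0.978 and 1.05 CPM with saline (2.08 ± 0.50, log2 fold change ± SE).

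Stromal and guidance genes moved in both directions. Of 17 adventitial fibroblast genes 7 fell and 3 rose (median -0.37): the dipeptidase Dpep1 averaged 48.2 against 159 CPM, Scara5 4.68 against 14.9 CPM and Igfbp6, which binds IGF2, 24.6 against 75.8 CPM in bleomycin and saline lungs. Of 22 semaphorin, slit and netrin genes 8 rose and 6 fell, with Slit3 at 87.3 against 176 CPM and Sema7a at 231 against 121 CPM. Of 22 genes of folding and stress in the endoplasmic reticulum 6 rose and 3 fell, 40.9% in either direction, the same share as of all tested genes, with Fkbp10, a collagen chaperone, at 49.0 against 24.0 CPM. Of 17 cholesterol synthesis genes 7 fell and 2 rose, 52.9% in either direction, against 40.9% of all tested genes. Insig1, which restrains the pathway, averaged 40.0 against 63.0 CPM. Tubb3, a tubulin known from neurons, had 1.64, 3.94, 7.71, 3.27 and 3.33 CPM in bleomycin lungs, against 0.820, 1.06, 0.772, 0.533 and 0.733 CPM in saline lungs (2.32 ± 0.39).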
